A study of Mus musculus with 64 samples.

Results

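Microglia, the resident macrophages of the brain, were sorted from whole brains of adult mice after PLX3397 and regrowth, and the comparison described here sets 4 libraries labelled RISP KO against 4 labelled RISP WT. These 8 libraries, of 64 in the series, were chosen by their labels for genotype, treatment and age group. Both groups carried the same label for treatment, PLX3397 Repopulation: PLX3397 blocks CSF1R, the receptor on whose signal microglia depend for survival, and repopulation is the return of the cells once the drug is withdrawn. A further 4 libraries labelled RISP Het received the same treatment and are given beside the comparison. The labels name no dose, day, sex or Cre driver, nor whether each replicate was its own animal, so the p-values measure the spread between these libraries, which may be technical. Counts for a CreERT2 transgene and a tdTomato reporter were present in every repopulated library, in KO (335 to 420.0 and 211 to 266 CPM, counts scaled to the library total), Het (486 to 630.5 and 201 to 306 CPM) and WT (484 to 807 and 168 to 213 CPM), so the WT and Het libraries carried both constructs too.

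RISP is the Rieske iron-sulphur protein, encoded by Uqcrfs1. It is the catalytic subunit of respiratory complex III that passes electrons from ubiquinol to cytochrome c1, and without it ubiquinol cannot be reoxidised by the respiratory chain. Cells with a failing respiratory chain are known in other tissues to turn on the integrated stress response, in which the transcription factors ATF4, ATF5 and CHOP raise genes for serine synthesis, mitochondrial folate metabolism, amino acid uptake and the charging of transfer RNA. Microglia depend on CSF1R signalling, and after its inhibitor is withdrawn the surviving cells divide and refill the brain.

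The libraries held 12555863 to 16273039 counts in KO, 12303172 to 14024950 counts in Het and 11638225 to 15473194 counts in WT. The microglial genes Cx3cr1, P2ry12 and Csf1r were abundant in all 8 libraries, with Cx3cr1 at 3187 to 3547 CPM in KO and 2931 to 4103 CPM in WT. Y-linked genes marked KO libraries 2, 3 and 4 and WT libraries 3 and 4 as male and the others as female, so sex was not balanced. WT library 3 held Y-linked genes at 117 CPM together with Xist, the RNA of the inactive X chromosome, at 13.7 CPM, against 1.46 CPM in WT library 4. Among the naive libraries used further on, Xist lay beside Y-linked genes at 11.2 CPM in KO library 3 and at 14.6 CPM in WT library 2, and the other male libraries of both settings held 0.61 to 2.28 CPM. Among depletion libraries it was 5.69 CPM in the male KO library and 4.88 and 7.62 CPM in the male WT libraries. Whether such a library holds RNA of more than 1 animal was not tested. The share of counts from the non-coding RNAs Gm26917 and Yam1 moved with genotype, at 0.195 to 0.276% in KO and 0.102 to 0.153% in WT, and its part in the results was not tested. In a principal component analysis the first component (30.3% of the variance) placed all KO libraries on one side and all WT on the other. The second (20.9%) placed the female libraries, KO 1 and WT 1 and 2, above every male library. At its lower end lay the male WT libraries 3 and 4, below the male KO libraries. The order along the second component thus went with the unbalanced sex, and among males also with genotype. What drives this component was not tested.

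Uqcrfs1 (ENSMUSG00000038462; chr13:30540308.0-30545362.0 of GRCm38, minus strand) was measured first, as the check of the labels. It had 9.05, 6.64, 6.37 and 10.7 CPM in KO libraries, against 51.7, 47.6, 63.7 and 52.8 CPM in WT libraries, with 29.6, 29.2, 30.3 and 34.5 CPM in Het libraries. Every KO library lay below every Het library, and every Het library below every WT library. The log2 fold change of KO over WT was -2.74 ± 0.19 (SE, n = 4 each; adjusted p = 4.54e-05, edgeR's quasi-likelihood test with Benjamini-Hochberg adjustment). In RNA from sorted cells in bulk, fewer cells expressing a gene and less RNA per cell cannot be told apart, and this holds for the Uqcrfs1 counts left in KO as for every gene below. The other subunits of complex III did not follow: Uqcrc1, a core subunit, had 124, 94.5, 113 and 107 CPM in KO libraries, against 116, 106, 133 and 96.8 CPM in WT libraries, and its log2 fold change was -0.06 ± 0.11. Of the 14 tested members of a list of complex III subunits and assembly factors other than Uqcrfs1, 1 was higher and 0 lower (6.44% of all genes tested were higher and 7.07% lower), the higher one being Uqcc2, an assembly factor for cytochrome b, with 31.6, 24.5, 23.4 and 24.9 CPM in KO libraries, against 14.9, 13.5, 16.3 and 13.8 CPM in WT libraries (log2 fold change 0.82 ± 0.13, adjusted p = 0.00396).

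Across the transcriptome, 12751 genes had enough counts to be tested and 1722 of them passed an adjusted p of 0.05, which is 13.5%. Higher in KO were 821 genes (6.44%) and lower 901 genes (7.07%), and the median log2 fold change over all genes tested was -0.00179. The CPM of KO and WT did not overlap for 21.2% of all genes, with all KO libraries above in 11.7% and below in 9.54%. Counts of list members below are read against these shares. No list was tested as a set. The number of genes called ranged from 1078 without KO library 3 to 1690 without WT library 3, and was 1128 without KO library 2 and 1110 without WT library 1. With the male libraries alone (KO 2 to 4, WT 3 and 4), an alternative chosen after the data were seen, 703 genes were called.

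**Figure D1:**
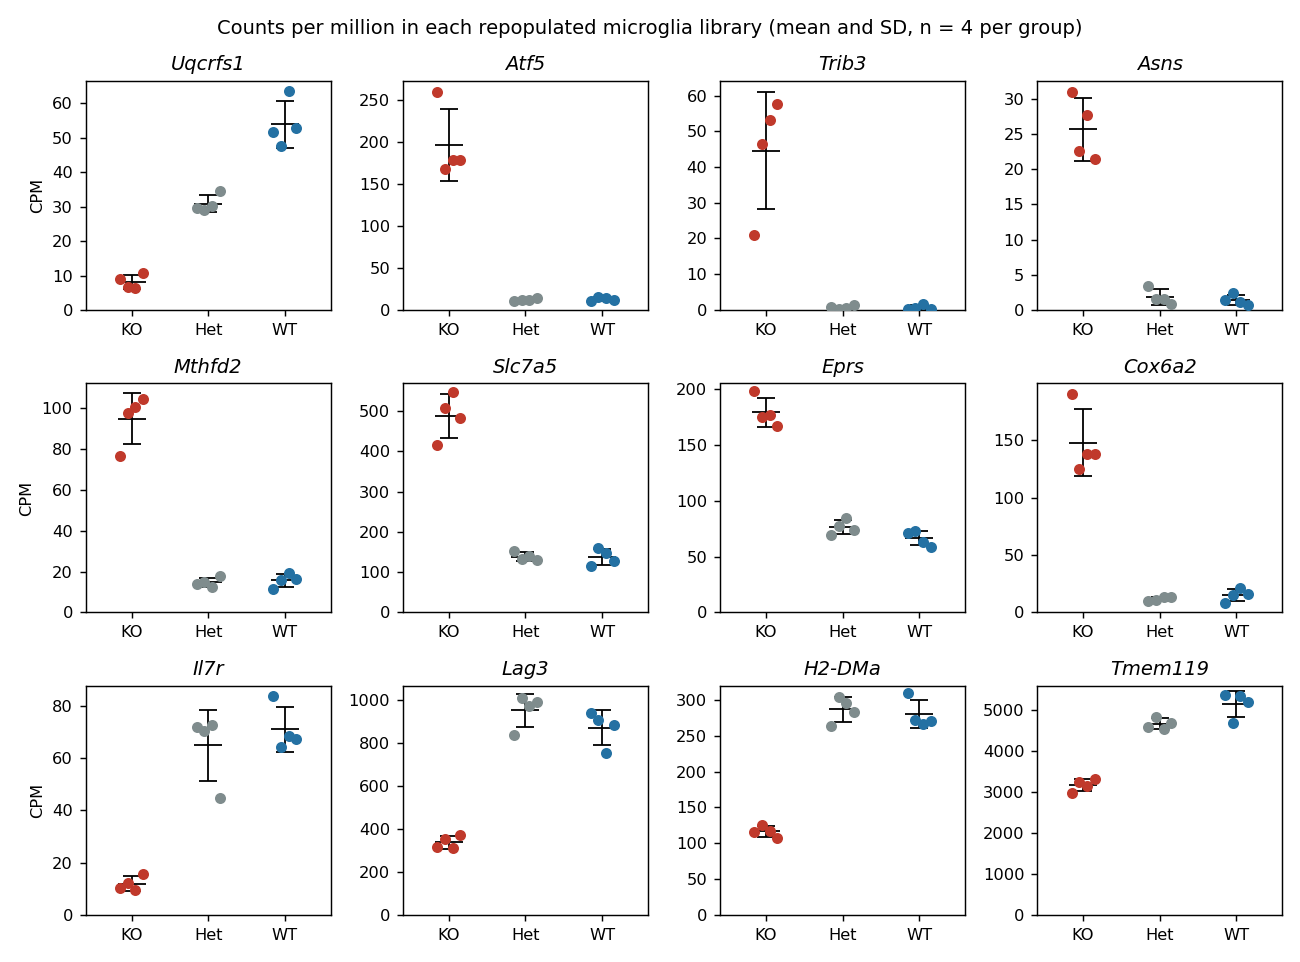
CPM (vertical axis, linear from 0) of 12 genes in the repopulated libraries, with 1 point per library for KO, Het and WT; the bar is the mean and the whiskers the SD (n = 4 per group). For Atf5, Trib3, Asns, Mthfd2, Slc7a5, Eprs and Cox6a2 all KO points lie above all WT points, and for Uqcrfs1, Il7r, Lag3, H2-DMa and Tmem119 all lie below.

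Regulators and effectors of the integrated stress response were higher in part. Atf5, a transcription factor of this response that is tied to mitochondrial stress, is on chr7:44812256.0-44816658.0 of GRCm38, minus strand. It had 260.3, 168, 178 and 179 CPM in KO libraries, against 10.7, 15.9, 14.2 and 11.9 CPM in WT libraries. All KO libraries lay far above all WT and Het libraries, and the log2 fold change was 3.88 ± 0.18 (adjusted p = 8.36e-06). Trib3, a pseudokinase that is induced by ATF4 and CHOP and dampens their action, had 20.9, 46.5, 53.2 and 57.7 CPM in KO libraries, against 0.388, 0.495, 1.74 and 0.344 CPM in WT libraries (log2 fold change 5.91 ± 0.52, adjusted p = 0.00018). KO library 1 held less Trib3 than the other KO libraries and still lay above every WT library. Of 21 tested regulators and effectors of the response, 9 were higher and 1 lower, and 9 had all KO libraries above all WT libraries. Summed over the list, KO libraries held 1035 to 1385 CPM and WT libraries 712 to 893 CPM. Het libraries held 770 to 1503 CPM, and Het library 4, at 1503 CPM, lay above every KO library. Eif4ebp1, which restrains the start of translation, had 59.5, 61.1, 65.6 and 55.04 CPM in KO libraries, against 18.7, 23.3, 19.4 and 22.8 CPM in WT libraries (log2 fold change 1.499 ± 0.114). Nupr1, a stress-induced chromatin protein, had 18.9, 21.4, 23.7 and 21.1 CPM in KO libraries, against 10.1, 11.3, 9.67 and 10.1 CPM in WT libraries (log2 fold change 1.03 ± 0.12). The members named next were chosen after their values were seen. Chac1, which breaks down glutathione, had 3.42, 8.97, 6.93 and 17.6 CPM in KO libraries, against 0.452, 0.212, 0.661 and 0 CPM in WT libraries, and all KO libraries lay above all WT libraries. Gdf15, a secreted stress hormone of the TGF-beta family, had 6.62, 7.07, 11.5 and 11.7 CPM in KO libraries, against 0.776, 1.56, 2.397 and 1.63 CPM in WT libraries, and Sesn2, which reports leucine supply to mTORC1, had 31.6, 67.5, 76.8 and 71.97 CPM in KO libraries, against 16.9, 14.6, 13.9 and 17.2 CPM in WT libraries. Ddit3, which encodes CHOP, had 16.7, 24.4, 24.9 and 28.1 CPM in KO libraries, against 10.9, 15.6, 13.6 and 10.1 CPM in WT libraries (log2 fold change 0.89 ± 0.19, adjusted p = 0.0155). The mRNA of Atf4 itself did not pass, with 87.9, 148, 151 and 132 CPM in KO libraries, against 69.5, 66.6, 109 and 83.9 CPM in WT libraries (log2 fold change 0.63 ± 0.21, adjusted p = 0.075), and KO library 1 fell within the WT range. The 1 lower member was Eif2ak3, which encodes the ER stress sensor PERK (log2 fold change -0.54 ± 0.12).

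Enzymes of serine, glycine and folate metabolism were mostly higher, in a list that also held asparagine synthetase and cytosolic enzymes. Of 13 tested enzymes, 10 were higher and 0 lower, all 10 with KO libraries above WT libraries, and the median log2 fold change of the 13 was 1.23. Mthfd2, the mitochondrial methylene-tetrahydrofolate dehydrogenase that adult tissues hardly express, had 76.7, 98.01, 101 and 105 CPM in KO libraries, against 11.4, 15.7, 19.1 and 16.4 CPM in WT libraries (log2 fold change 2.58 ± 0.17, adjusted p = 4.35e-05). Asns, asparagine synthetase, had 31.03, 22.6, 27.7 and 21.5 CPM in KO libraries, against 1.49, 2.48, 1.07 and 0.773 CPM in WT libraries (log2 fold change 4.11 ± 0.31, adjusted p = 8.39e-05). Aldh1l2, which oxidises formyl-tetrahydrofolate in mitochondria, had 80.7, 39.6, 47.5 and 37.2 CPM in KO libraries, against 4.91, 4.104, 3.72 and 2.84 CPM in WT libraries (log2 fold change 3.69 ± 0.28). In each of these every KO library lay well above every WT library. Shmt2, which splits serine into glycine and a one-carbon unit, had 59.4, 64.03, 61.96 and 55.2 CPM in KO libraries, against 24.4, 24.5, 24.4 and 27.8 CPM in WT libraries (log2 fold change 1.23 ± 0.10). The first and second enzymes of serine synthesis also rose: Phgdh had 274, 260.3, 292 and 209.7 CPM in KO libraries, against 88.9, 88.5, 97.2 and 62.98 CPM in WT libraries, and Psat1 had 152, 133, 138 and 115 CPM in KO libraries, against 52.03, 42.7, 35.1 and 21.5 CPM in WT libraries. Psph, the third, had a log2 fold change of 0.11 ± 0.29 and did not pass. Shmt1, the cytosolic counterpart of Shmt2, did not pass at 0.41 ± 0.45, and Mthfd2l, the paralogue of Mthfd2, did not at -0.11 ± 0.40. There were 10 higher and 0 lower members whichever of the 8 libraries was left out, and 8 were called with male libraries alone.

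Promoters of these genes were searched for TGATGNAA, the core of the C/EBP-ATF elements that ATF4 dimers are known to bind, where N is any base. The window ran from 250 bases before to 50 after each RefSeq start (RefSeq, GRCm38.p6), and both strands were read. The motif lay in 7 of the 22 higher members of the stress response, serine and transporter lists that had a window (31.8%), in 2 of the 15 members not past the threshold (13.3%), in 5 of the 11 higher cytosolic aminoacyl-tRNA synthetases (45.5%), in 2.78% of the 9801 tested genes with a window and in 4.51% of all 27025 genes with one. A match is a description of letters, not a bound site. Upstream matches are shown for 7 of the higher members of these lists and of the synthetases. These 7 were picked for holding a match, and whether genes with a match move together was not tested. Capitals mark the motif or its reverse complement, TTNCATCA, read along the gene's own strand.
Asns, chr6:7693214-7693243, minus strand: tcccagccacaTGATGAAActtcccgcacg
Chac1, chr2:119351038-119351067, plus strand: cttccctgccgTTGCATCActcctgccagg
Nupr1, chr7:126625562-126625591, minus strand: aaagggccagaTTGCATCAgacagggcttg
Pycr1, chr11:120643833-120643862, minus strand: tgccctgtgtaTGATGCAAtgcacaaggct
Slc7a11, chr3:50443642-50443671, minus strand: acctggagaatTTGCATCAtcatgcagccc
Slc7a11, chr3:50443661-50443690, minus strand: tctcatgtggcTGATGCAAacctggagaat
Gars, chr6:55037960-55037989, plus strand: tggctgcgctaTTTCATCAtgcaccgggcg
Tars, chr15:11399659-11399684, minus strand: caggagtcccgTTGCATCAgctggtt
Slc7a11 held 2 matches, one in each orientation. In Asns and Pycr1 the motif reads along the sense strand, and in Chac1, Nupr1, Gars and Tars along the antisense strand.

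Amino acid transporters followed the enzymes. Of 10 tested, 6 were higher and 0 lower, with a median log2 fold change of 0.71. Slc7a5, the light chain of the large neutral amino acid transporter LAT1, had 415, 508, 547 and 482 CPM in KO libraries, against 116, 159.6, 148 and 129 CPM in WT libraries (log2 fold change 1.80 ± 0.12, adjusted p = 4.32e-05). Slc7a1, which carries arginine and lysine, had 129, 142, 149 and 113 CPM in KO libraries, against 30.2, 36.9, 33.6 and 28.4 CPM in WT libraries (log2 fold change 2.03 ± 0.11). Slc1a4, a carrier of alanine, serine and cysteine, had 63.9, 84.4, 92.1 and 79.97 CPM in KO libraries, against 13.5, 19.9, 16.9 and 15.3 CPM in WT libraries (log2 fold change 2.27 ± 0.15). KO and WT libraries did not overlap for any of these. Slc7a11, the cystine importer that feeds glutathione synthesis, had 23.05, 17.5, 21.3 and 16.4 CPM in KO libraries, against 9.11, 7.71, 7.85 and 4.98 CPM in WT libraries (log2 fold change 1.38 ± 0.19), and its Benjamini-Hochberg adjusted p of 0.00196 by edgeR's quasi-likelihood test no longer passed in the fit of all 64 libraries. Slc1a5, a glutamine carrier, did not pass (log2 fold change -0.14 ± 0.31).

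Enzymes that charge transfer RNA were higher mostly among the cytosolic ones. Of 20 cytosolic aminoacyl-tRNA synthetases, 14 were higher and 0 lower, and 15 had all KO libraries above all WT libraries (median log2 fold change 0.59). Of 17 mitochondrial synthetases, 3 were higher and 0 lower (median 0.10), and the difference between the 2 lists was not tested. Of these 3 mitochondrial calls, 1 was lost whichever single library was left out. Another was lost without any 1 of KO 3, WT 1, WT 2 or WT 4. Eprs, the glutamyl-prolyl enzyme, had 198, 175, 176 and 167 CPM in KO libraries, against 70.8, 73.03, 63.2 and 58.9 CPM in WT libraries (log2 fold change 1.41 ± 0.08, adjusted p = 3.10e-05). Sars, the seryl enzyme, had 257, 223, 290.2 and 275 CPM in KO libraries, against 89.5, 96.2, 123 and 92.5 CPM in WT libraries (log2 fold change 1.36 ± 0.13). Gars, the glycyl enzyme, had 128, 123, 131 and 117 CPM in KO libraries, against 65.5, 77.7, 65.6 and 67.4 CPM in WT libraries (log2 fold change 0.84 ± 0.08). In all 3 the KO libraries lay above the WT libraries, and the Het libraries (69.5 to 84.6 CPM for Eprs) lay near WT. Tars2, the mitochondrial threonyl enzyme, had 31.03, 29.4, 38.5 and 27.7 CPM in KO libraries, against 21.1, 18.5, 19.3 and 21.7 CPM in WT libraries (log2 fold change 0.63 ± 0.13), and its call was lost in the fit of all 64 libraries. Whichever single library was removed, the cytosolic list had 11 or 12 higher members.

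Cytosolic ribosomal protein genes, a list chosen after the values were seen, held the most higher calls of any list here. Of 83 tested, 75 were higher and 0 lower, 78 had all KO libraries above all WT libraries, and the median log2 fold change was 0.59. Rps19 had 801, 648, 684 and 687 CPM in KO libraries, against 362, 389.9, 348 and 363 CPM in WT libraries (log2 fold change 0.93 ± 0.08, adjusted p = 0.000164). Rpl4 had 1791, 1477, 1598 and 1556 CPM in KO libraries, against 840.5, 850.2, 777 and 889 CPM in WT libraries (log2 fold change 0.92 ± 0.08). In both, every KO library lay above every WT library. Genes of this family have many processed pseudogenes, and how the counting shared reads among the copies is not given in the sources used here. In the fit of all 64 libraries 30 members were called, and with male libraries alone 37, none of them lower. Mitochondrial ribosomal protein genes, also listed after values were seen, had 4 higher of 77 (median 0.25).

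**Figure D2:**
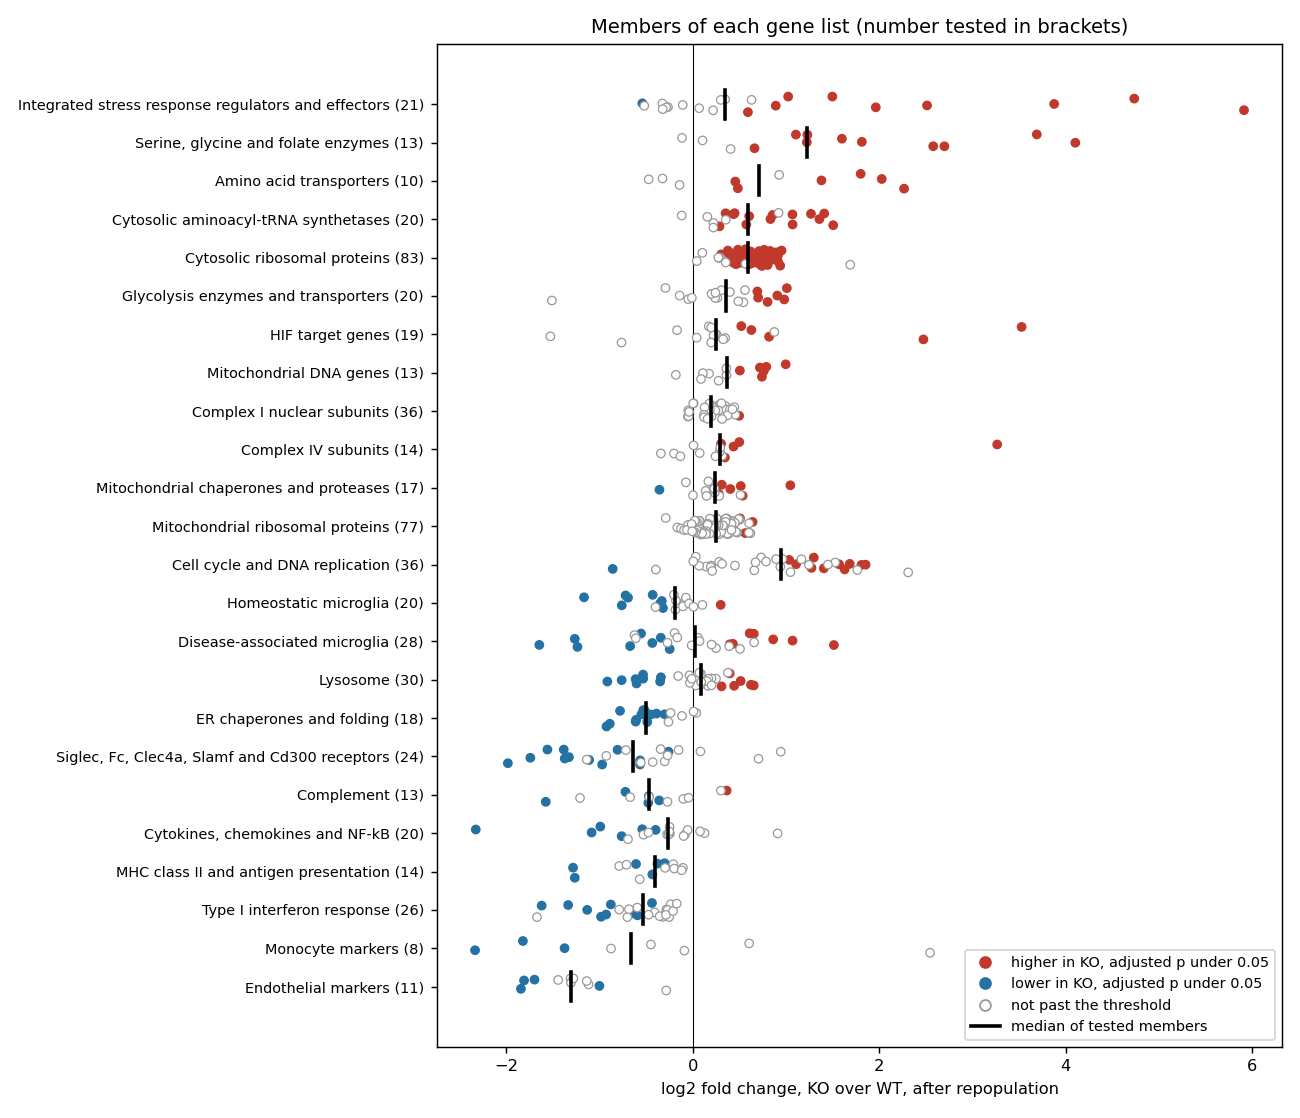
The log2 fold change of KO over WT after repopulation (horizontal axis) for every tested member of 24 gene lists (1 point each, spread vertically only for visibility), filled red or blue where the gene was higher or lower in KO past an adjusted p of 0.05 and open where it did not pass; black bars are medians. Serine and folate enzymes (median 1.23) and cytosolic ribosomal protein genes (75 of 83 red) lie to the right, and type I interferon genes (median -0.53) and endothelial markers (median -1.31) to the left.

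Among nuclear genes for the respiratory chain, calls were few in complexes I, III and V and more frequent in complex IV, where 1 isoform changed most. Cox6a2, the heart and muscle isoform of a cytochrome oxidase subunit, had 190.3, 125, 138 and 138 CPM in KO libraries, against 8.53, 15.1, 20.9 and 16.2 CPM in WT libraries (log2 fold change 3.27 ± 0.26, adjusted p = 0.000109). Every KO library lay far above every WT and Het library, while the ubiquitous isoform Cox6a1 had a log2 fold change of 0.32 ± 0.11 and did not pass. Of 36 nuclear subunits of complex I, 2 were higher and 0 lower (median 0.19), a share of higher genes close to that of all genes. For complex V the counts were 2 higher and 0 lower of 15, and for enzymes of the tricarboxylic acid cycle 2 and 0 of 21. Over the 15 alternative settings described below, the 2 calls of complex I were kept in 7 and 3, and those of complex V in 5 and 3. Of the 2 calls in the cycle, Idh3b was kept in 7 settings and Ogdh in all 15. Complex IV had 5 higher of 14 (median 0.29), and of these Cox7a2l, which links complexes III and IV, had 426, 368, 393 and 398 CPM in KO libraries, against 272, 277, 288 and 316 CPM in WT libraries (log2 fold change 0.44 ± 0.09). The complex IV calls for Cox4i1 and Cox7c were both lost with the replicate block and in the fit of all 64 libraries. Both were also lost without any 1 of KO 1, KO 3, WT 1 or WT 2, Cox4i1 further without KO 2 and Cox7c without WT 4. Ogdh, a subunit of the oxoglutarate dehydrogenase complex, had 228, 229, 200.5 and 232 CPM in KO libraries, against 157, 163, 145 and 180.01 CPM in WT libraries (log2 fold change 0.44 ± 0.09).

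Transcripts from mitochondrial DNA were higher for some genes and not others. Of 13 protein-coding genes, 6 were higher and 0 lower (median 0.36). The genes for all 3 mitochondrial subunits of cytochrome oxidase rose: mt-Co2 had 4997, 4693, 4322 and 4035 CPM in KO libraries, against 2461, 2540.3, 1800.5 and 2119 CPM in WT libraries (log2 fold change 1.00 ± 0.11, adjusted p = 0.00054), mt-Co1 a log2 fold change of 0.74 ± 0.10 and mt-Co3 of 0.79 ± 0.11. mt-Cytb, the mitochondrial subunit of complex III, rose with 3726, 3466, 3228 and 3097 CPM in KO libraries, against 2712, 2757, 1841 and 2097 CPM in WT libraries (log2 fold change 0.51 ± 0.12, adjusted p = 0.0241). mt-Nd2 (log2 fold change -0.18 ± 0.13) and mt-Nd4 (0.11 ± 0.17) did not pass. None of the 13 passed in the fit of all 64 libraries. Mitochondrial chaperones and proteases had 6 higher and 1 lower of 17. Hspa9, the mitochondrial HSP70, had 197, 193, 196 and 158 CPM in KO libraries, against 82.1, 92.3, 91.8 and 88.8 CPM in WT libraries (log2 fold change 1.05 ± 0.09, adjusted p = 0.000187). Hspe1, the small partner of HSP60, had 121, 89.5, 107 and 97.5 CPM in KO libraries, against 69.5, 68.4, 66.1 and 77.4 CPM in WT libraries (log2 fold change 0.54 ± 0.11), whereas Hspd1, HSP60 itself, had 106, 84.99, 75.1 and 80.96 CPM in KO libraries, against 73.9, 83.3, 72.1 and 81.5 CPM in WT libraries, with overlapping groups (log2 fold change 0.14 ± 0.12, adjusted p = 0.482). The 1 lower member was Spg7, a subunit of an inner membrane protease (log2 fold change -0.36 ± 0.10).

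Glycolysis and hypoxia genes were partly higher. Of 20 glycolytic enzymes and transporters, 6 were higher and 0 lower (median 0.35). Pgk1, phosphoglycerate kinase, had 332, 174, 189.95 and 163 CPM in KO libraries, against 121, 119.5, 97.5 and 84.1 CPM in WT libraries (log2 fold change 1.01 ± 0.22, adjusted p = 0.0162). Gpi1, which isomerises glucose 6-phosphate, had 555, 426, 421 and 451 CPM in KO libraries, against 274, 301, 246 and 308 CPM in WT libraries (log2 fold change 0.69 ± 0.11). Pfkl, a phosphofructokinase, had 334, 256, 258 and 266 CPM in KO libraries, against 175, 187, 94.5 and 131 CPM in WT libraries (log2 fold change 0.91 ± 0.19). KO library 1 was the highest of the KO libraries in all 3, and groups did not overlap. Ldha, which makes lactate, had 389.98, 253, 251 and 209.95 CPM in KO libraries, against 209.8, 213, 163 and 162 CPM in WT libraries and did not pass (adjusted p = 0.0774). Of 19 targets of the hypoxia factor HIF, 5 were higher and 0 lower. Lox, which crosslinks collagen, had 87.6, 85.7, 76.4 and 91.8 CPM in KO libraries, against 6.92, 8.99, 3.39 and 9.795 CPM in WT libraries (log2 fold change 3.53 ± 0.27, adjusted p = 8.91e-05). Vegfa, the endothelial growth factor, had 15.2, 14.2, 12.6 and 12.9 CPM in KO libraries, against 3.23, 2.62, 2.56 and 1.29 CPM in WT libraries (log2 fold change 2.48 ± 0.25). Mxi1 and Ero1l were also among the 5 higher targets, and the call for Ero1l was lost without WT library 4. The other 14 targets did not pass, among them Pdk1 (log2 fold change 0.25 ± 0.12) and Egln1 (0.26 ± 0.14).

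Genes of homeostatic microglia fell in part. Of 20 tested, 8 were lower and 1 higher, and 9 had all KO libraries below all WT libraries. Tmem119, a surface protein that marks microglia in the brain, had 2976, 3258, 3147 and 3318 CPM in KO libraries, against 5360.2, 4692, 5354 and 5198 CPM in WT libraries (log2 fold change -0.72 ± 0.07, adjusted p = 0.000309). Selplg, the ligand of P-selectin, had 1691, 1904, 1769.7 and 1987 CPM in KO libraries, against 4443, 3804, 4046 and 3968 CPM in WT libraries (log2 fold change -1.16 ± 0.07, adjusted p = 3.54e-05). Olfml3, a secreted matrix protein, had 2399.9, 2358, 2364 and 2125 CPM in KO libraries, against 4199.6, 3706, 3786 and 3753 CPM in WT libraries (log2 fold change -0.76 ± 0.06). In these genes every KO library lay below every WT library. Others of the list did not pass: P2ry12, a purine receptor, had 3447, 3899, 3744 and 3583 CPM in KO libraries, against 4344, 3407, 4627 and 3994 CPM in WT libraries (log2 fold change -0.18 ± 0.10), and Cx3cr1, the fractalkine receptor, had a log2 fold change of -0.07 ± 0.11. Sall1, a transcription factor of microglial identity, had 868, 963, 956 and 1056 CPM in KO libraries, against 931, 887, 855 and 855 CPM in WT libraries, with overlapping groups. Csf1r, the target of PLX3397, had 12205, 12388, 12723 and 12922 CPM in KO libraries, against 14420.5, 14005, 13008 and 14793 CPM in WT libraries (log2 fold change -0.18 ± 0.06, adjusted p = 0.0913). All KO libraries were below all WT libraries for Csf1r without passing the test. Mertk, a receptor for apoptotic cells, was the 1 higher member (log2 fold change 0.30 ± 0.07). Of 14 genes of the CSF1R axis and myeloid factors, 3 were lower and 0 higher, among them Tgfb1, the cytokine that maintains microglial identity (log2 fold change -0.50 ± 0.06), and Klf4, a transcription factor (-0.96 ± 0.26). The call for Klf4 was lost without any 1 of KO 1, KO 2, KO 3, WT 1, WT 3 or WT 4, and in the fits of all 12 repopulated and all 64 libraries.

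Disease-associated microglia genes, which microglia raise around plaques and damaged myelin, split in both directions, with 7 higher and 8 lower of 28 (median 0.02). Clec7a, a receptor for beta-glucans, had 143, 91.1, 103 and 138 CPM in KO libraries, against 33.99, 51.4, 27.6 and 50.6 CPM in WT libraries (log2 fold change 1.52 ± 0.23, adjusted p = 0.003). Cst7, an inhibitor of cathepsins, had 47.9, 37.98, 31.5 and 38.6 CPM in KO libraries, against 16.3, 26.8, 12.6 and 17.5 CPM in WT libraries (log2 fold change 1.07 ± 0.22). Ctsb, cathepsin B, had 6574, 6376, 6659.6 and 6099.99 CPM in KO libraries, against 3669, 4310.2, 3965 and 4137 CPM in WT libraries (log2 fold change 0.66 ± 0.07). These lay above WT in every library. Lower were Ccl6, a chemokine, with 21.3, 30.8, 27.2 and 23.3 CPM in KO libraries, against 69.8, 70.3, 104 and 72.9 CPM in WT libraries (log2 fold change -1.64 ± 0.17, adjusted p = 0.000409), and Cd68, a lysosomal membrane protein, with 485, 439, 443 and 436 CPM in KO libraries, against 638, 647, 626 and 697 CPM in WT libraries (log2 fold change -0.55 ± 0.07). Axl, a receptor for apoptotic cells, had 172, 161, 219.6 and 206 CPM in KO libraries, against 383, 618, 192 and 566 CPM in WT libraries, and WT library 3 lay within the KO range. Trem2 (log2 fold change -0.19 ± 0.08), Apoe (-0.61 ± 0.32) and Spp1 (-0.62 ± 0.29) did not pass. Clec7a, Cst7 and Axl were named after their values were seen.

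Genes of antigen presentation and of the interferon response that passed were all lower, though most members did not pass. Of 14 genes of MHC class II and antigen presentation 6 were lower and 0 higher, and all 14 log2 fold changes were negative (median -0.40). H2-DMa, which loads peptides onto class II, had 116, 125, 118 and 108 CPM in KO libraries, against 309, 273, 267 and 271 CPM in WT libraries (log2 fold change -1.28 ± 0.07, adjusted p = 3.08e-05). Cd74, the invariant chain, had 22.7, 25.2, 24.7 and 35.7 CPM in KO libraries, against 66.1, 81.4, 48.1 and 61.3 CPM in WT libraries (log2 fold change -1.26 ± 0.18). B2m, the light chain of class I, had 2435, 2208, 2243 and 2287 CPM in KO libraries, against 3081, 3377, 2543 and 3206 CPM in WT libraries (log2 fold change -0.43 ± 0.09). Groups did not overlap for these. Of 26 type I interferon response genes 9 were lower and 0 higher, and all 26 log2 fold changes were negative (median -0.53). Irf7, the factor that amplifies interferon production, had 15.2, 11.7, 17.1 and 17.2 CPM in KO libraries, against 38.001, 56.9, 28.6 and 29.6 CPM in WT libraries (log2 fold change -1.33 ± 0.22, adjusted p = 0.00462). Oas1a, a sensor of double-stranded RNA, had 17.7, 13.8, 13.6 and 20.2 CPM in KO libraries, against 33.99, 43.7, 25.2 and 38.1 CPM in WT libraries (log2 fold change -1.13 ± 0.20). WT library 3 held the lowest WT values of both, and in 6 of 26 genes all KO libraries lay below all WT libraries. The count was 14 without WT library 3, 4 without KO 4, WT 2 or WT 4, 5 without KO 1, KO 2, KO 3 or WT 1, and 1 with male libraries alone. For antigen presentation it was 9 without WT library 3, 4 without KO 1, KO 2, WT 2 or WT 4, and 1 with male libraries alone.

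Of 13 complement genes 5 were lower and 1 higher. The 3 chains of C1q, the recognition molecule of the classical pathway, all fell: C1qb had 2286, 2461, 2525 and 2386 CPM in KO libraries, against 3806, 4106, 4072 and 3721 CPM in WT libraries (log2 fold change -0.72 ± 0.06, adjusted p = 0.000119), C1qa a log2 fold change of -0.48 ± 0.06 and C1qc of -0.47 ± 0.06. C3ar1, the receptor for the C3a fragment, was the 1 higher member (log2 fold change 0.37 ± 0.08). Cytokines, chemokines and NF-kB genes had 6 lower and 0 higher of 20. Ccl9, a chemokine of mice, had 25.3, 32.02, 18.3 and 26.6 CPM in KO libraries, against 104, 119, 173 and 110.3 CPM in WT libraries (log2 fold change -2.33 ± 0.21, adjusted p = 0.000193). Ccl12 had 22.7, 25.2, 24.5 and 23.9 CPM in KO libraries, against 34.5, 40.8, 43.98 and 41.7 CPM in WT libraries (log2 fold change -0.76 ± 0.11). Each lay below WT in every KO library, whereas Il1b (log2 fold change -0.25 ± 0.30) and Tnf (0.91 ± 0.37) did not pass. Complement factor B, Cfb, had 1.902, 2.34, 2.63 and 2.74 CPM in KO libraries, against 14.8, 28.1, 4.79 and 12.5 CPM in WT libraries (log2 fold change -2.66 ± 0.46), with WT libraries spread over a wide range and none within that of KO.

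Surface receptors of the Siglec, Fc, Clec4a, Slamf and Cd300 families, listed after the values were seen, had 12 lower and 0 higher of 24 (median -0.64). Lag3, an inhibitory receptor that binds MHC class II, had 316, 355, 310.5 and 373 CPM in KO libraries, against 941, 905, 754 and 882 CPM in WT libraries (log2 fold change -1.38 ± 0.09, adjusted p = 4.16e-05). Siglece, a receptor for sialic acid, had 46.9, 46.3, 43.5 and 43.1 CPM in KO libraries, against 130.03, 115, 141 and 135 CPM in WT libraries (log2 fold change -1.56 ± 0.09). Slamf8 had 11.3, 14.7, 10.8 and 11.97 CPM in KO libraries, against 41.7, 50.95, 42.9 and 53.96 CPM in WT libraries (log2 fold change -1.98 ± 0.15). Clec4a3 had 26.5, 27.4, 28.8 and 28.7 CPM in KO libraries, against 76.3, 61.5, 63.7 and 82.7 CPM in WT libraries (log2 fold change -1.37 ± 0.12). In each, every KO library lay below every WT library. Il7r, the receptor for interleukin 7, was lower by more, with 10.4, 12.1, 9.56 and 15.8 CPM in KO libraries, against 83.8, 64.3, 68.4 and 67.1 CPM in WT libraries (log2 fold change -2.58 ± 0.17, adjusted p = 3.73e-05).

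**Figure D3:**
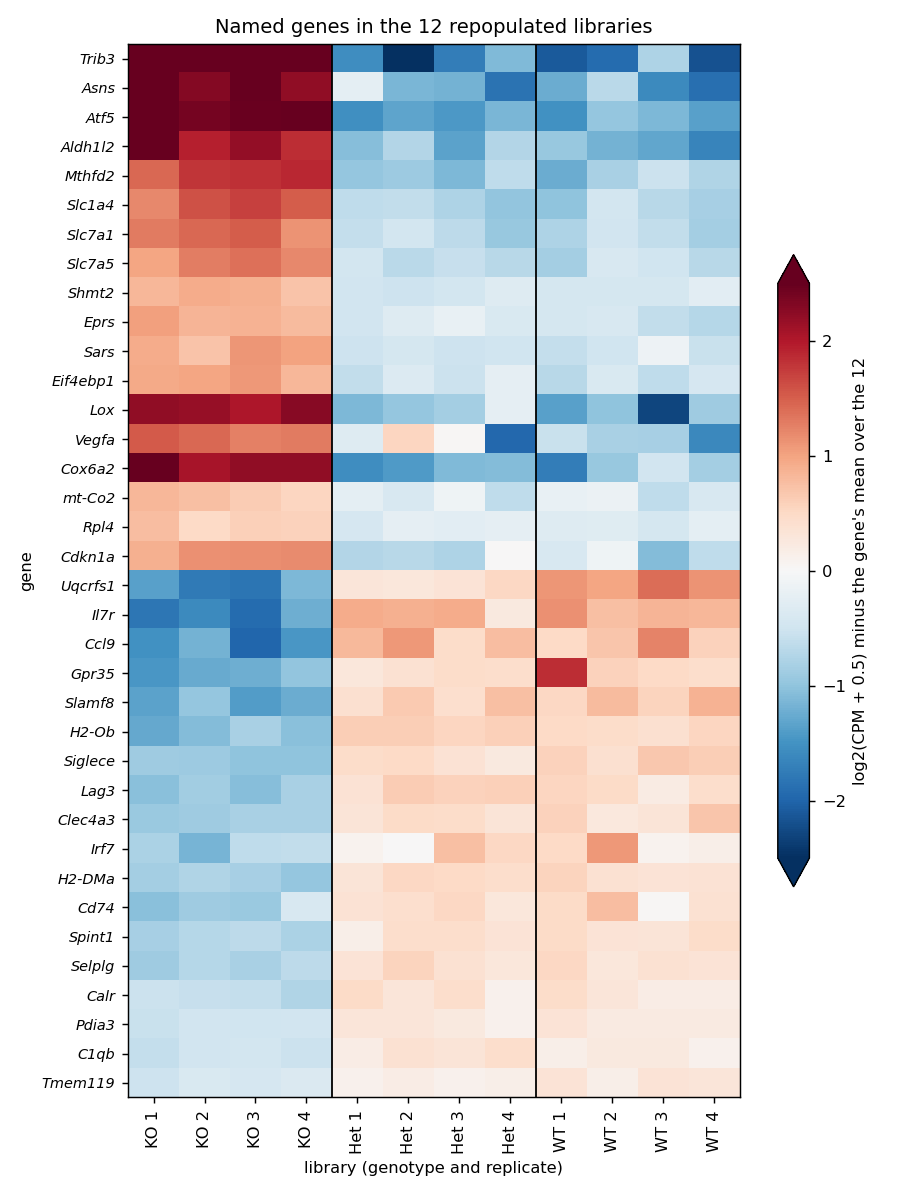
Colour shows log2(CPM + 0.5) minus the gene's mean over the 12 repopulated libraries, red above and blue below the mean, for 36 genes (rows) in KO, Het and WT libraries (columns). The KO columns stand apart from the Het and WT columns in each row, with Gpr35 in WT library 1 and Irf7 in WT library 2 as uneven cells on the WT side.

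Chaperones of the endoplasmic reticulum, also listed after values were seen, were lower while stress response targets were higher. Of 18 tested, 13 were lower and 0 higher, all 13 with KO libraries below WT libraries (median -0.50). Calr, calreticulin, had 777, 761, 749 and 669 CPM in KO libraries, against 1561, 1402, 1287 and 1289 CPM in WT libraries (log2 fold change -0.92 ± 0.08, adjusted p = 0.000119). Pdia3, a disulphide isomerase, had 573, 603, 596 and 599.7 CPM in KO libraries, against 1070.1, 985, 975 and 984 CPM in WT libraries (log2 fold change -0.78 ± 0.06). Hspa5, the ER HSP70 known as BiP, had 684, 756, 846 and 694 CPM in KO libraries, against 1022, 1125, 873 and 995 CPM in WT libraries (log2 fold change -0.45 ± 0.09, adjusted p = 0.0139). Leaving out single libraries gave 12 or 13 lower members, and male libraries alone gave 5. Lysosome genes went both ways, with 6 higher and 8 lower of 30. Ctsh, cathepsin H, had 528, 509, 579 and 547 CPM in KO libraries, against 1035, 1035, 943 and 1011 CPM in WT libraries (log2 fold change -0.91 ± 0.07), and Ctsd, cathepsin D, had 21001, 20547, 21480.2 and 18470.2 CPM in KO libraries, against 14851, 16253, 14336 and 15537 CPM in WT libraries (log2 fold change 0.40 ± 0.07). Gusb, beta-glucuronidase, was lower (log2 fold change -0.61 ± 0.06) and Gaa, the acid glucosidase, higher (0.63 ± 0.11).

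Cell cycle genes that passed were mostly higher, at low levels. Of 36 tested, 10 were higher and 1 lower, 16 had all KO libraries above all WT libraries, and the median log2 fold change was 0.95. Mki67, a marker of dividing cells, had 5.25, 5.59, 6.45 and 8.61 CPM in KO libraries, against 3.17, 2.97, 1.32 and 0.773 CPM in WT libraries (log2 fold change 1.63 ± 0.42, adjusted p = 0.0313). Aurkb, a mitotic kinase, had 5.096, 4.18, 8.28 and 4.498 CPM in KO libraries, against 2.13, 1.27, 0.661 and 1.89 CPM in WT libraries (log2 fold change 1.86 ± 0.40, adjusted p = 0.0162). All KO libraries lay above all WT libraries in both. The call for Mki67 was lost with the replicate block and without any 1 KO library or WT 3, and that for Aurkb with the replicate block, without KO 3 and in the fit of all 64 libraries. The lower member was Mcm7, a subunit of the replication helicase, with 7.07, 10.8, 10.5 and 11.1 CPM in KO libraries, against 21.3, 16.1, 17.03 and 16.1 CPM in WT libraries (log2 fold change -0.86 ± 0.18). Mcm2 to Mcm6 and Pcna, other genes of DNA replication, did not pass. The calls were few once a library was left out: 1 higher member without KO 2, 2 without KO 3, 3 without KO 4 or WT 3, 4 without KO 1, WT 1 or WT 4, and 8 without WT 2. In the fit of all 64 libraries 2 were called.

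Inhibitors of the cell cycle and targets of p53 had 2 higher and 4 lower of 17. Cdkn1a, which encodes p21 and is a target of both p53 and stress signalling, had 142, 169, 173 and 175 CPM in KO libraries, against 57.6, 71.3, 35.9 and 48.98 CPM in WT libraries (log2 fold change 1.61 ± 0.18, adjusted p = 0.000608). Ccng1, cyclin G1, a p53 target, had 117, 107, 105 and 112 CPM in KO libraries, against 61.1, 63.7, 64.3 and 67.3 CPM in WT libraries (log2 fold change 0.76 ± 0.08). Cdkn1c, which encodes p57, was lower with 4.49, 3.87, 4.86 and 4.88 CPM in KO libraries, against 14.2, 12.9, 12.6 and 12.97 CPM in WT libraries (log2 fold change -1.56 ± 0.16, adjusted p = 0.000378). Mdm2, another p53 target, did not pass (log2 fold change -0.13 ± 0.19). In the BCL2 family 3 were higher and 1 lower of 16. Bcl2l2, which protects from apoptosis, had 14.3, 10.6, 10.5 and 18.7 CPM in KO libraries, against 4.65, 5.73, 5.13 and 4.81 CPM in WT libraries (log2 fold change 1.39 ± 0.22), and Bax, which opens the mitochondrial outer membrane, had 55.4, 51.1, 50.5 and 53.9 CPM in KO libraries, against 34.5, 38.0003, 39.4 and 34.7 CPM in WT libraries (log2 fold change 0.50 ± 0.09). Bmf, a BH3-only member that promotes death, was lower (log2 fold change -0.71 ± 0.10), and Mcl1, on which myeloid cells rely, did not pass (-0.25 ± 0.09).

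Other metabolic lists had fewer calls. Both ferritin chains rose, Fth1 with 2853, 2449.5, 2355 and 2348 CPM in KO libraries, against 1492, 1634, 1366 and 1484 CPM in WT libraries (log2 fold change 0.72 ± 0.08, adjusted p = 0.000682) and Ftl1 with 2344, 1739.9, 1771 and 1841 CPM in KO libraries, against 1014, 1066, 1101 and 1126 CPM in WT libraries (log2 fold change 0.82 ± 0.10), in a list of iron genes with 3 higher and 1 lower of 17. Tfrc, the transferrin receptor, did not pass (log2 fold change -1.55 ± 0.72). Of 15 targets of the oxidant-sensing factor NRF2, 3 were higher, and Hmox1 (-0.14 ± 0.18) and Gclm (0.16 ± 0.14) did not pass. Genes that make or use coenzyme Q, the electron donor to complex III, had 1 higher and 1 lower of 18: Coq3, a methyltransferase of its synthesis (0.91 ± 0.25), and Sqrdl, which oxidises sulphide at the expense of coenzyme Q (-0.57 ± 0.13). The call for Coq3 was lost with no filter, with the replicate block, in the fit of all 64 libraries and without any 1 of KO 1, KO 2, KO 3, WT 1, WT 2 or WT 4, and that for Sqrdl without any 1 of KO 2, KO 3, KO 4 or WT 1. Dhodh, which needs coenzyme Q to make pyrimidines, did not pass (0.49 ± 0.19). Purine and pyrimidine synthesis had 2 higher of 19, cholesterol synthesis 3 higher of 22, and cholesterol efflux 1 higher and 1 lower of 13. Immediate early genes, which rise when cells are dissociated, had 0 higher and 2 lower of 19. Their summed level spread, at 1948 to 7377 CPM in KO, 2563 to 5159 CPM in WT and 3787 to 13258 CPM in Het. KO library 1 was the lowest KO library here and in the summed stress response list (1035 CPM). Het library 4 was the highest repopulated library in both (13258 and 1503 CPM). The highest KO library was KO 4 here and KO 3 in the stress response list. The part of dissociation in the stress response values was not tested.

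Markers of other cells were examined because a sort can carry them over. Endothelial markers had 4 lower and 0 higher of 11, all 11 log2 fold changes were negative (median -1.31), and their summed level was 66.1 to 149 CPM in KO and 164 to 300.2 CPM in WT. Cldn5, a tight junction protein of brain vessels, had 17.6, 3.503, 4.301 and 15.2 CPM in KO libraries, against 41.6, 29.7, 31.7 and 26.6 CPM in WT libraries (log2 fold change -1.70 ± 0.47), and its call was lost without any 1 library other than KO 1. Monocyte markers had 3 lower and 0 higher of 8, with a summed level of 28.9 to 56.6 CPM in KO and 50.9 to 94.5 CPM in WT, which overlap. Of the 8 log2 fold changes 2 were positive, the highest being 2.55, and the median was -0.66. All 3 monocyte calls were lost in the fit of all 64 libraries. Among them 2 were also lost without any 1 of KO 1, KO 3, KO 4 or WT 1. Border-associated macrophage markers summed to 404 to 688 CPM in KO and 474 to 967 CPM in WT, with 0 higher and 1 lower of 12, that one being Siglec1. Its call was lost with the replicate block, with sex as covariate, in the fit of all 64 libraries and without any 1 of KO 1, KO 2, KO 3, WT 1, WT 2 or WT 4. Lymphocyte markers summed to 18.5 to 21.4 CPM in KO and 26.7 to 35.4 CPM in WT, and 10 of their 13 members had too few counts to be tested. Of the 3 tested, 1 was lower, Gzma, a granule protease of killer lymphocytes, with 0, 0.4302, 0.159 and 0.152 CPM in KO libraries, against 4.07, 3.18, 0.909 and 0.859 CPM in WT libraries. Its call was lost with sex as covariate and without any 1 of KO 3, KO 4, WT 1 or WT 2. Neutrophil markers had no call among 6 tested, and their summed level was 428 to 501 CPM in KO and 367 to 407 CPM in WT, higher in KO with no overlap. Most tested neutrophil markers nonetheless pointed lower in KO, with 2 of the 6 log2 fold changes positive and a median of -0.71. The summed level therefore does not describe the list as a whole. Oligodendrocyte, astrocyte, neuron and red blood cell markers had no call in either direction. The part of these cells in the lower antigen presentation, interferon, complement, cytokine and receptor genes was not tested. The call count for endothelial markers was 7 without KO library 1, 1 without KO library 2 or WT library 1, and 2 without KO library 3, KO library 4, WT library 2 or WT library 4.

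Among the genes with the largest fold changes were several outside these lists. Hist1h2ah, a histone gene, had 8.14, 21.7, 26.4 and 16.6 CPM in KO libraries, against 0, 0, 0 and 0 CPM in WT libraries. It had no count in any WT library, and against a floor of 3 counts per WT library its KO mean was at least 79.8-fold higher. Histone genes of this cluster are near-identical copies and this gene's share of the reads is uncertain, and Het libraries held 9.696, 5.85, 4.99 and 0 CPM in Het libraries. Gpr35, a receptor on gut and immune cells, had 10.95, 12.7, 12.98 and 15.4 CPM in KO libraries, against 113, 46.5, 43.98 and 42.4 CPM in WT libraries (log2 fold change -2.25 ± 0.32), with WT library 1 far above the rest. Ipcef1 had 3.499, 7.25, 5.89 and 7.32 CPM in KO libraries, against 27.1, 24.6, 27.6 and 25.7 CPM in WT libraries (log2 fold change -2.15 ± 0.22, adjusted p = 0.000382). Tnfsf13b, which encodes the B cell factor BAFF, had 3.96, 8.17, 8.28 and 5.03 CPM in KO libraries, against 23.3, 28.9, 26.04 and 30.4 CPM in WT libraries (log2 fold change -2.11 ± 0.25, adjusted p = 0.000755). Klhdc8b had 3.499, 10.4, 2.63 and 6.099 CPM in KO libraries, against 50.9, 14.3, 49.4 and 27.9 CPM in WT libraries (log2 fold change -2.66 ± 0.50). The groups did not overlap for the last 4.

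The KO effect after repopulation was then set beside the KO effect without PLX3397, in 5 naive KO and 5 naive WT adult libraries, fitted together with the 8 repopulated ones. The 2 comparisons share no library. Per the labels the naive KO and WT libraries were read on another sequencer model than the repopulated ones, so setting and sequencer cannot be told apart, although each KO effect is taken within its own setting. Y-linked genes marked naive KO library 2 as female and the other naive libraries used as male, so the sex make-up of the groups also differed between the settings. Of the 821 genes higher in KO after repopulation 776 (94.5%) had a positive log2 fold change in naive cells, where 52.7% of all genes did, and 250 were also called higher. Of the 901 lower genes 828 (91.9%) had a negative one, where 47.3% did, and 214 were also called lower, against 4.53% of genes called in either direction in naive cells. Across the 9024 genes with a mean log2 CPM of at least 3, the 2 log2 fold changes had Pearson's r of 0.628 and Spearman's rho of 0.537. Genes of lower level were left out of both values. They are a description across genes, which are not independent replicates. In the fit of both settings the log2 fold change of Atf5 was 3.89 after repopulation and 2.47 in naive cells, and that of Trib3 was 5.91 and 3.51. The naive KO libraries spread more, with Atf5 at 14.05, 44.8, 80.05, 102 and 65.9 CPM in naive KO libraries and 10.3, 13.2, 9.699, 11.8 and 11.3 CPM in naive WT libraries. Naive KO library 1 held Atf5 close to the WT range although its Uqcrfs1, 9.87 CPM, was as low as in the other KO libraries.

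**Figure D4:**
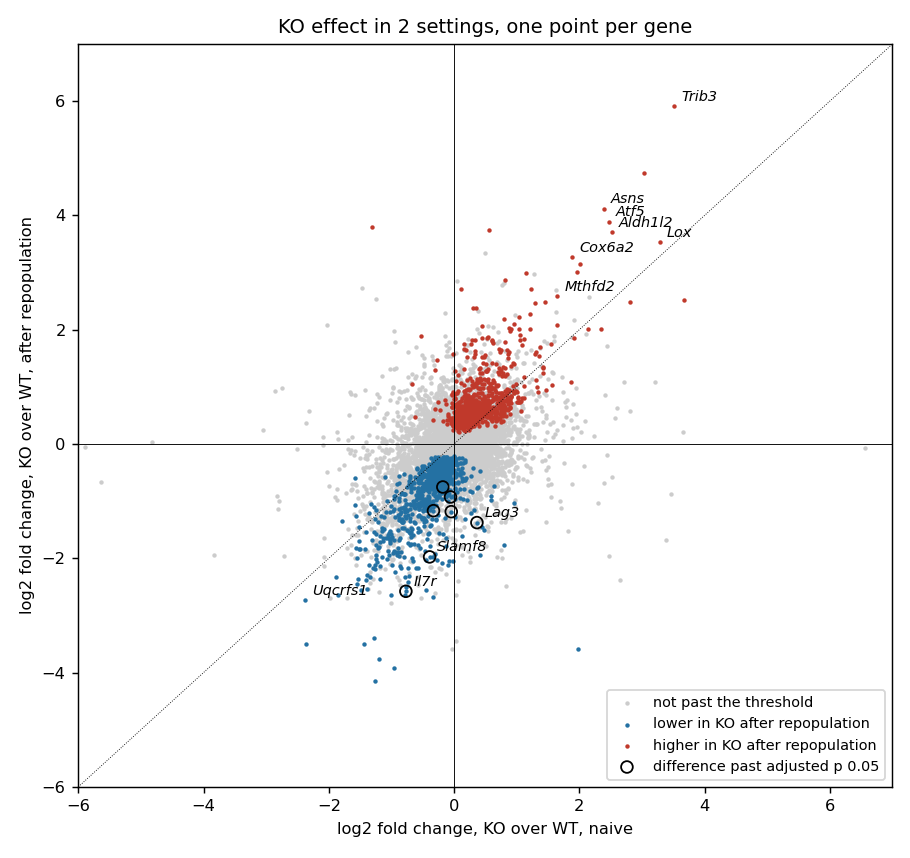
The log2 fold change of KO over WT in naive microglia (horizontal axis) and after repopulation (vertical axis) for the 12751 genes tested after repopulation, 1 point per gene, coloured by the call after repopulation; 8 genes lie outside the axes. Most coloured points lie in the lower left and upper right, and the circled genes, whose effects differ between settings, lie below the dotted line of equal effects.

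The difference between the 2 KO effects was tested as an interaction over 14074 genes. It passed for 8 genes (0.0568%), all with a lower KO effect after repopulation, and 1286 genes had an unadjusted p under 0.05. Lag3 held, after repopulation, 316, 355, 310.5 and 373 CPM in KO libraries, against 941, 905, 754 and 882 CPM in WT libraries. In naive cells it held 494, 884, 556, 535 and 624 CPM in KO and 503, 462, 566, 468 and 428 CPM in WT, so the groups did not overlap after repopulation and overlapped in naive cells. Its difference of log2 fold changes was -1.74 ± 0.20 (SE; adjusted p = 0.00113). Slamf8 had a difference of -1.59 ± 0.21 (adjusted p = 0.00309), with 22.05, 15.5, 17.7, 20.8 and 15.5 CPM in naive KO and 23.9, 26.8, 25.1, 28.2 and 17.03 CPM in naive WT libraries. Il7r, at 60.3, 32.4, 33.4, 23.4 and 21.4 CPM in naive KO and 64.9, 57.2, 56.97, 62.7 and 49.9 CPM in naive WT libraries, was lower in KO in both settings and by more after repopulation (difference -1.81 ± 0.31). Spint1, a protease inhibitor (difference -0.84), Cep152, a centriole protein (-1.14), and Olfml3 (-0.57) followed. Nat8l, the enzyme that makes N-acetylaspartate, had a difference of -0.87. The last was Gm26759, an unnamed RNA, which had 0 counts in all naive WT libraries, so its fitted difference of -9.55 is no measure of size. The number of such genes was 4 to 22 when single libraries were left out, with the 22 reached without WT repopulation library 3, and 148 by DESeq2. With sex as covariate the number was 7, of which 1 had a higher KO effect after repopulation. It was 13 without naive KO library 1, and 35 without that library and WT repopulation library 3, a pair chosen after the data were seen.

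**Figure D5:**
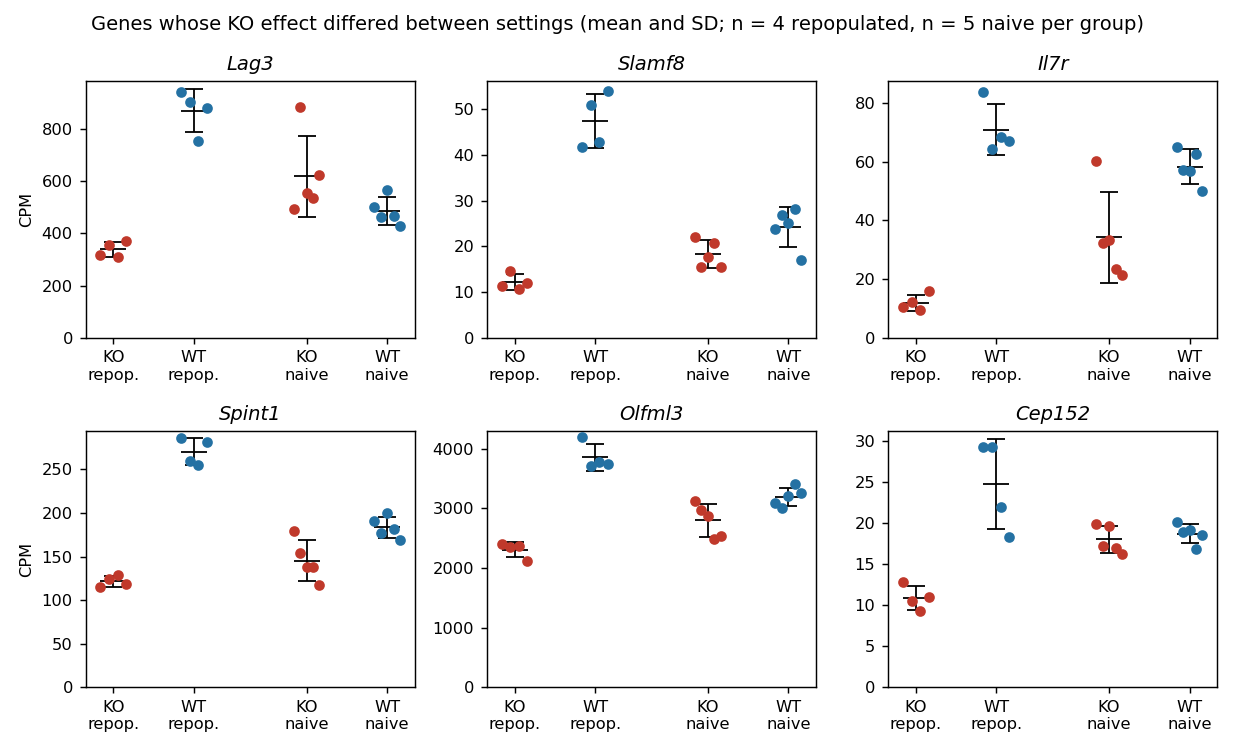
CPM (vertical axis, linear from 0) of 6 genes whose KO effect differed between settings, in KO and WT libraries after repopulation (n = 4 each) and naive (n = 5 each); the bar is the mean and the whiskers the SD. After repopulation all KO points lie below all WT points in each panel, and in naive cells the 2 groups lie closer together.

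The same test against the depletion stage used 2 KO and 4 WT libraries sorted under the label PLX3397 Depletion, with 14537 genes, of which 708 (4.87%) were called in KO against WT at depletion. Of the genes higher in KO after repopulation 91% had a positive log2 fold change at depletion, where 47.7% of all genes did, and of the lower ones 87.7% a negative one, where 52.3% did. The KO effect differed for 7 genes (0.0482%), all lower after repopulation, and 1304 genes had an unadjusted p under 0.05. Slamf8 had 31.2 and 33.1 CPM in depletion KO and 39.6, 37.6, 37.1 and 32.7 CPM in depletion WT libraries, and its difference was -1.81 ± 0.20 (SE; adjusted p = 0.00701). Olfm4 was called higher in KO at depletion, at 12.7 and 17.1 CPM in KO and 8.34, 6.76, 6.09 and 7.63 CPM in WT libraries, and lower after repopulation, with 7.76, 9.34, 8.68 and 8.46 CPM in KO libraries, against 11.9, 15.6, 16.4 and 19.8 CPM in WT libraries (difference -1.99 ± 0.29). Cd52, a small surface glycoprotein, also changed direction, at 69.4 and 68.6 CPM in KO and 53.5, 47.8, 50.4 and 47.3 CPM in WT at depletion and 95.1, 77.4, 77.1 and 86.8 CPM in KO libraries, against 138, 154, 109.8 and 127 CPM in WT libraries after repopulation (difference -1.17). H2-Ob (-1.22), Lag3 (-0.96) and mt-Nd1 (-1.05) were also in the set. With 2 KO libraries at depletion this count rests on few samples, and it was 1 to 18 when single libraries were left out, the 18 without WT repopulation library 3.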

How the data were processed

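The authors deposited 1 table of raw read counts per gene, 45708 genes by 64 libraries, with a named column for each library. Per the labels, microglia were sorted on CD11b and CD45, and 5 to 10 ng of total RNA went into a stranded total RNA kit and single-end reads. The submitters' processing notes name the aligner STAR 2.6.1d, the quantifier Salmon 1.5.2, bcl2fastq 2.20, the trimmer Trim Galore 0.6.7 and the build GRCm38. Which of these gave the counts, and whether strand was used, is not given in the sources used here, so overlapping antisense genes are uncertain.

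Genes with enough counts (edgeR's filterByExpr, minimum count 10) were normalised by TMM and tested with edgeR 4.0.16 (glmQLFit and glmQLFTest, R 4.3.3) on the 8 libraries, KO over WT. P-values were adjusted by Benjamini-Hochberg over all genes tested, with a threshold of 0.05. CPM were computed here from each library's total. Errors of log2 fold changes are standard errors, the size of the change over the square root of its F statistic. Differences of the KO effect were interaction contrasts in fits of 18 libraries (naive) and 14 (depletion). The naive groups were limited to libraries whose counts held under 1% from the non-coding RNAs Gm26917 and Yam1, as all repopulated libraries did. Sex was read from Y-linked genes. Replicates with the same number did not deviate together (correlations 0.145, -0.0359, 0.203 and -0.049), so the main fit has no pairing. No library pair agreed within sampling noise. The tests were checked on simulated data.

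Text names Uqcrfs1, the 10 called genes with the largest change in each direction with a mean log2 CPM of 3 or more, up to 4 called members of each list by smallest p, the 5 differences with the smallest p in each direction, and other list members given with their values; a few named by this rule are not reported here. The members and lists were chosen with earlier results of these data known. 41 lists came from general knowledge, and 4 were added after values were seen. Alternatives were DESeq2 1.42.0 (Wald test), its size factors in edgeR, no filter, a replicate block, sex as covariate, each library left out, all 12 repopulated and all 64 libraries. The fit of all 64 libraries had a mean per group and batch. Batch was not taken from a label but set here from the share of Gm26917 and Yam1 counts and the library total. Promoters came from RefSeq by gene symbol, which matched 9801 of 12751 tested genes.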

Additional observations from a re-analysis of the deposited data

Results flagged for a closer look

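Libraries that stood apart within their group of 4, by Dixon's test on the gap to the nearest library, were found in 24 of 276 groups of named genes, where chance flags about 1 in 20. In KO library 1 the levels set apart were Atf5 at 260.3 CPM, Cox4i1 at 406 CPM, Pfkl at 334 CPM, Aldoa at 787 CPM, Pgk1 at 332 CPM, Cd68 at 485 CPM, Ftl1 at 2344 CPM and Tek at 4.11 CPM on the high side, and Mcm7 at 7.07 CPM and Cdkn1a at 142 CPM on the low side. KO library 3 was low in Ogdh at 200.5 CPM and Bub1b at 4.22 CPM. KO library 4 was low in Hspa9 at 158 CPM and Olfml3 at 2125 CPM. WT library 1 was high in Gpr35 at 113 CPM, Olfml3 at 4199.7 CPM, H2-DMa at 309 CPM and Pdia3 at 1070.1 CPM. WT library 2 was high in Gars at 77.7 CPM and Srxn1 at 4.25 CPM. WT library 3 was high in Trib3 at 1.74 CPM, Idh3b at 53.6 CPM and Ccl6 at 104 CPM. WT library 4 was high in Shmt2 at 27.8 CPM. KO library 1, with 10 of these levels, was also the only female KO library.

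The KO effect differed between settings, by the interaction test, for 15 entries, of which 14 are given. Repopulation minus naive gave -1.74 for Lag3, -1.59 for Slamf8, -0.839 for Spint1, -1.14 for Cep152, -1.81 for Il7r, -0.574 for Olfml3, -0.871 for Nat8l and -9.55 for Gm26759 on the log2 scale. Repopulation minus depletion gave -1.81 for Slamf8, -1.17 for Cd52, -1.99 for Olfm4, -1.22 for H2-Ob, -0.964 for Lag3 and -1.05 for mt-Nd1. Slamf8 and Lag3 are in both sets, whose repopulated libraries are the same 8.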

How the results depend on the processing

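Of 1722 genes called in KO against WT after repopulation, single libraries left out gave 1078 to 1690 calls, all 64 libraries with a mean per group and batch 881, and the male libraries alone, chosen after the data were seen, 703 (274 higher, 429 lower). Other settings kept the count within 1.5 times: 1722 with DESeq2's size factors, 1410 with no filter, 2477 by DESeq2, 1878 with sex as covariate, 2013 with all 12 repopulated libraries and 1332 with the replicate block, where the numbers did not pair the samples. Of 151 named genes that were called, none reversed, and 82 were called in every alternative except male libraries alone, which was not counted; most losses were in the fit of 64 libraries (61) and, with male libraries alone, 63. Of these named genes that the text describes, Cfb, Cox7a2l, Hspe1, Bmf, Bax, Irf7, B2m, Mcm7, Ccl12, C1qa, Cd52 and Olfm4 lost their call in the fit of 64 libraries and in no other of these alternatives, male libraries alone not counted. The same held for mt-Co1, mt-Co2, mt-Co3, Slc7a11, Tars2 and Tgfbi. The 8 differences from naive became 148 by DESeq2, 2 with the replicate block, 17 with naive replicates 1 to 4 only, 35 without naive KO 1 and repopulated WT 3 (added after the data were seen), and 4 to 22 with single libraries left out. The 7 differences from depletion became 14 with no filter, 215 by DESeq2, 19 with the replicate block, 1 with all 64 libraries, and 1 to 18 with single libraries left out; without a KO depletion library the lone one left is assumed to vary like the other groups. Among single libraries left out, the highest count in both came without WT repopulation library 3. The cause of these shifts was not tested. What depth limits was not tested.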

Other observations

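Outside the gene lists and the named genes, the 8 genes of smallest p-value, chosen after their values were seen, were Tmem176b, Tmem176a, Ly86, Tm6sf1, Serpinf1, Igfbp4, H2-Oa and Ang, and each was lower in KO. Tmem176b, an ion channel of endosomes that dendritic cells use in antigen presentation, had 128, 127, 121 and 123 CPM in KO libraries, against 403, 358, 386 and 397 CPM in WT libraries (log2 fold change -1.65 ± 0.07, adjusted p = 6.64e-06, edgeR's quasi-likelihood test). Its neighbour and partner Tmem176a had 37.4, 40.6, 41.02 and 41.1 CPM in KO libraries, against 134, 132, 125 and 131 CPM in WT libraries (log2 fold change -1.72 ± 0.07). Ly86, also called MD-1, which holds the receptor RP105 at the cell surface, had 316, 319, 333 and 329 CPM in KO libraries, against 785, 765, 774 and 795 CPM in WT libraries (log2 fold change -1.29 ± 0.06). In all 3 the spread within each group was small beside the gap between groups. Igfbp4, a binding protein of insulin-like growth factors, had 37.3, 32.1, 34.96 and 39.8 CPM in KO libraries, against 182, 134, 129 and 154 CPM in WT libraries (log2 fold change -2.07 ± 0.13), and Serpinf1, which encodes the secreted factor PEDF, had 16.4, 14.01, 14.97 and 14.7 CPM in KO libraries, against 63.6, 48.7, 63.5 and 53.4 CPM in WT libraries (log2 fold change -1.95 ± 0.12). H2-Oa had 14.6, 18.9, 16.2 and 16.2 CPM in KO libraries, against 52.2, 53.5, 51.99 and 46.4 CPM in WT libraries (log2 fold change -1.65 ± 0.10). It pairs with H2-Ob, which had 15.6, 17.9, 21.7 and 18.5 CPM in KO libraries, against 54.4, 53.2, 50.8 and 56.02 CPM in WT libraries (log2 fold change -1.56 ± 0.12), to form the molecule that restrains H2-DM in peptide loading, so the genes for both chains were lower together.

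For some genes the KO effect was more positive after repopulation than in another setting, without a called difference. Mki67 was at 2.15 and 2.18 CPM in depletion KO and 9.56, 7.29, 12.4 and 5.43 CPM in depletion WT libraries, lower in KO there and higher after repopulation, and the difference of 3.61 ± 0.66 had an adjusted p of 0.0896 by edgeR. Tgfbi, a matrix protein, was lower in KO in naive cells (112, 97.4, 94.2, 96.3 and 129 CPM in KO and 129, 227, 161, 131 and 175 CPM in WT libraries) and higher after repopulation, with 91.7, 100.3, 95.1 and 108 CPM in KO libraries, against 74.6, 81.02, 66.9 and 61.3 CPM in WT libraries, and the difference of 1.09 ± 0.20 had an adjusted p of 0.0568. Dusp3, a phosphatase of MAP kinases, had 117, 123, 119 and 89.3 CPM in KO libraries, against 52.5, 41.1, 45.8 and 43.6 CPM in WT libraries after repopulation and overlapped in naive cells (difference 1.27 ± 0.23, adjusted p = 0.0518).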
